A study of Mus musculus with 34 samples.

Results

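The transcripts described here encode 32 proteins of the lysosome: 10 cathepsins and other proteases, 8 glycosidases and sulfatases, 2 sphingolipid activator proteins with progranulin, 4 membrane proteins, 5 subunits of the proton pump, and the transcription factors TFEB and TFE3. They were taken by symbol from a table of 25965 entries, and each of the 32 symbols was found once. Expression was measured in cumulus cells (CCs), the granulosa-derived cells that surround the oocyte, from superovulated female C57BL/6J (B6) mice. Each library came from about 50 CCs of 1 cumulus-oocyte complex, and the study's methods give 1 library per animal. Both protocols were started at 8 weeks of age. In the leptin protocol mice received saline (16 C, 3 libraries) or leptin at 100 µg/day (16 L, 5 libraries) by intraperitoneal injection for 16 days. In the diet-induced obesity protocol mice received chow diet (CD, 11% of kcal from fat) or high-fat diet (HFD, 58% of kcal from fat). Libraries were made after 4 weeks of diet (5 CD, 5 HFD) and after 16 weeks (6 CD, 7 HFD), and 3 further libraries came from animals labelled low weight gainers after 16 weeks of HFD. Obesity and high circulating leptin are joined in the diet protocol, whereas the leptin protocol raises leptin in lean animals. The gonadotropins given for superovulation were shared by all groups. Where the sources do not say how replicates were housed or processed, p-values measure the spread between these libraries.

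Lysosomes are acidic organelles that receive cargo from endocytosis, phagocytosis and autophagy. Most of their soluble hydrolases carry a mannose 6-phosphate tag that sorts them from the Golgi, a vacuolar H+-ATPase pumps protons into the lumen, and heavily glycosylated membrane proteins line the inner face. TFEB and TFE3 are basic helix-loop-helix factors that stay in the cytoplasm while mTORC1 is active at the lysosomal surface, and that enter the nucleus under starvation or lysosomal stress. There they bind E-box-like elements in promoters of lysosomal genes, so that many of these genes can be switched together. In the ovary, lysosomal proteases take part in follicle remodelling and in the clearance of dying granulosa cells, and release of cathepsin B from damaged lysosomes is one of the known triggers of the NLRP3 inflammasome.

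Because TFEB and TFE3 act through the promoter, the sequences around the start sites were examined for the 6 letters CACGTG, the core of the E-box, which reads the same on both strands. RefSeq promoters (build GRCm38.p6, 250 bases before to 50 after the start) were at hand for 27 of the 32 genes. The core was found in 12 of these 27 (44.4%), compared with 8.09% of 27025 genes with a promoter in the same table. The 12 were Ctsa, Ctsd, Ctsf, Ctsl, Lgmn, Lamp1, Glb1, Gla, Sgsh, Mcoln1, Atp6v1a and Atp6v0d1. The extended form TCACGTGA, looked for after the first count was seen, was found in 6 of the 27 (22.2%) and in 1.12% of all genes. The longer palindrome, with GT before and AC after the core, was found in 0 of the 27 and in 0.37% of all genes. Ctsb, Ctsh, Galns, Atp6v1b2 and Atp6v1h were not in the promoter table. A match describes letters in this window and says nothing of binding in these cells. Promoters are shown for Mcoln1, Lamp1 and Glb1, which were higher in low weight gainers than in 16-week HFD, and for Gla, which was lower in 16 L than in 16 C. Of the other called members, Ctsf, also higher in low weight gainers, had a core at -79 and is not shown. Grn, Scpep1 and Man2b1, also higher in low weight gainers, and Gm2a, which was lower in 16 L, had no core in this window. Ctsb and Atp6v1h, called as well, had no promoter to read. Each promoter shown is written 5′ to 3′ on the strand of its gene, and capitals mark the core.
Mcoln1, chr8:3500269-3500568, plus strand: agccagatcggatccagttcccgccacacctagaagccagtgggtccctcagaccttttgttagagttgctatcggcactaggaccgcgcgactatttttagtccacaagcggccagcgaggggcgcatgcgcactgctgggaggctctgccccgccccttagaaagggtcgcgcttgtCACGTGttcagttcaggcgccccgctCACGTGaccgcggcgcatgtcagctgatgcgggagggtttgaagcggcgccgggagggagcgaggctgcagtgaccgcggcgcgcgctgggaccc
Lamp1, chr8:13158911-13159210, plus strand: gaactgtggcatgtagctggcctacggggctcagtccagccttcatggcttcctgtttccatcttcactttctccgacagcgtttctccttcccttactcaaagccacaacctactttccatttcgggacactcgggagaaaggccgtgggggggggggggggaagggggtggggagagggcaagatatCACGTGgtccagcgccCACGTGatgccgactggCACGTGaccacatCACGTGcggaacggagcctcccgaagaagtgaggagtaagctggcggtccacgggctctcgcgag
Gla, chrX:134600956-134601255, minus strand: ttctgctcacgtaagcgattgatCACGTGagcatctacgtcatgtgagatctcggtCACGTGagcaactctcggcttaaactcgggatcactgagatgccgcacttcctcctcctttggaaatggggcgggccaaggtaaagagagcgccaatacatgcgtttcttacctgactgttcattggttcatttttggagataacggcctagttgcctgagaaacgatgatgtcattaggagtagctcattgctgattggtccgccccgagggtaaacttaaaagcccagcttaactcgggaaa
Glb1, chr9:114400828-114401127, plus strand: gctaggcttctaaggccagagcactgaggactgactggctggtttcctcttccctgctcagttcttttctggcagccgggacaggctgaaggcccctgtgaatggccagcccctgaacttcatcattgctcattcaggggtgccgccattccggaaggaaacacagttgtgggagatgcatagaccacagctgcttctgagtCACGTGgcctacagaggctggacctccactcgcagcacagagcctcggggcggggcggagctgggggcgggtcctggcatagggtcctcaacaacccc
Lamp1 carried 4 cores, at positions -61, -45, -28 and -15 from the start site. Mcoln1 carried cores at -71 and -45, Gla at -227 and -194, and Glb1 at -48.

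Total counts ranged from 1104611 to 13207018 per library. Levels are given as counts per 1e+06 reads (CPM), scaled by trimmed mean of M-values (TMM) factors over the 34 libraries. These factors were 0.640 to 0.738 in 16 C and 0.873 to 1.32 in 16 L, so levels of the leptin protocol depended on the scaling. Some libraries stood apart from their group. In 16 L replicate 18 the summed level of 10 oviduct epithelium markers was 36540 CPM, against at most 1881 CPM in the other 16 L libraries and 202.6 to 227.4 CPM in 16 C, where Foxj1 and Muc1 were at 0. The same library had 1649 CPM of 7 theca and stroma markers and 11230 CPM of 3 red blood cell markers, and its 4 cumulus expansion markers summed to 2.22 CPM, against 1195 to 2192 CPM in 16 C. The other 4 libraries of 16 L, at 199.7 to 639.6 CPM, were below 16 C in this sum too. Of these, 3 (replicates 20, 21 and 23) were above 16 C in the sum of the oviduct markers, at 1454, 1881 and 675 CPM. Leaving out replicate 18 thus did not remove either difference in the sums. By gene, the 4 expansion markers had log2 fold changes from -2.92 to 0.10 in 16 L against 16 C, with a median of -0.14. Of the 4, 1 was positive, and 0 had an adjusted p under 0.05 by edgeR's quasi-likelihood test. Red blood cell markers reached 1939 CPM in 16 L replicate 21. In 4-week HFD replicate 5 the 10 oocyte markers summed to 379.6 CPM, against at most 2.96 CPM in the other 4-week HFD libraries. The TMM factors of 16-week CD replicates 1 and 2 were 1.37 and 1.33, whereas the other 4 libraries of that group had 0.762 to 0.99. The 8 granulosa identity genes summed to 791.4 CPM or more in every library. Single genes differed on the log2 scale by edgeR's quasi-likelihood test. In 4-week HFD against CD, Fshr was higher (1.87, adjusted p = 0.0281). In low weight gainers against 16-week HFD, Amhr2 was higher (0.94, adjusted p = 0.0326) and Inhba lower (-1.07, adjusted p = 0.011). The expansion marker Ptgs2 was lower there too (-0.89, adjusted p = 0.0388). Against 16-week CD the 4 expansion markers were negative in low weight gainers (median -1.41), and none was called. Because these are bulk libraries, fewer cells of a type and less RNA per cell cannot be told apart.

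Compared per kilobase of exon, the most abundant of the 32 transcripts was Gm2a, the activator protein that presents GM2 ganglioside to hexosaminidase, with 2279 CPM per kb as the mean of the 7 group means. Psap, the precursor of the saposins, followed with 679.5 CPM per kb, then Lgmn, an asparaginyl endopeptidase, with 493.1 CPM per kb. The cathepsins Ctsl, Ctsd and Ctsb lay close together at 153, 147 and 146 CPM per kb. At the other end were Tfeb with 0.411, Sgsh with 0.537, Tfe3 with 3.075 and Galns with 3.14 CPM per kb. The 2 transcription factors of the list were thus among its 3 lowest transcripts on this scale. All 32 transcripts had at least 1 read in some library of every group. Hexa varied least between group means of CPM (1.30-fold from 16-week CD to 16 L) and Gm2a most (21.5-fold from 4-week CD to 16 C).

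The mean over the 32 members of log2(CPM + 1) was 6.70 ± 0.10 in 16 C (SD, n = 3) and 6.71 ± 0.45 in 16 L (n = 5). It was 6.72 ± 0.30 in 4-week CD (n = 5) and 7.17 ± 0.23 in 4-week HFD (n = 5). After 16 weeks it was 6.91 ± 0.25 in CD (n = 6), 6.67 ± 0.23 in HFD (n = 7) and 7.09 ± 0.04 in the low weight gainers (n = 3). The 3 low weight gainers, at 7.06 to 7.13, all lay above the 7 libraries of 16-week HFD, at 6.38 to 6.97. In the other comparisons of the design the groups overlapped. These levels depend on the scaling, between protocols or times and within them. With scaling by total counts the means were 6.195 in 16 C and 6.955 in 16 L. They were 7.047 in 4-week CD and 7.363 in 4-week HFD. After 16 weeks they were 6.952 in CD, 6.402 in HFD and 6.944 in the low weight gainers. The lowest library of the series was 16 L replicate 18, at 5.94, and in 16-week CD replicate 9 the mean was 6.405 while the other 5 libraries of that group had 6.95 to 7.06.

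**Figure D1:**
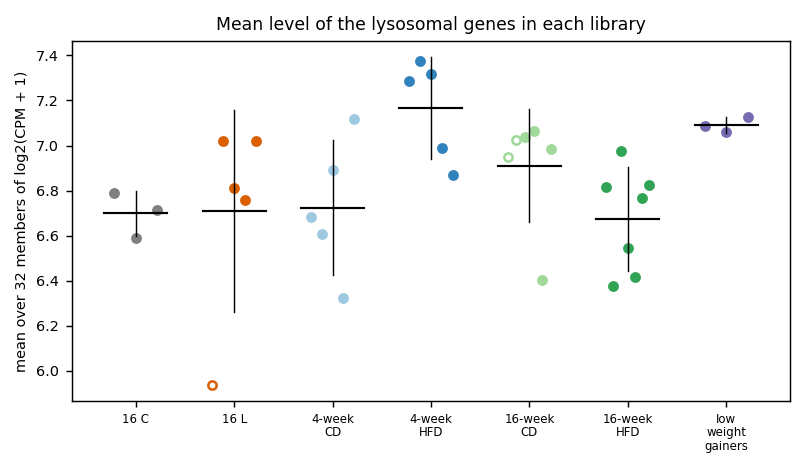
Mean over the 32 lysosomal genes of log2(CPM + 1) on the vertical axis, for each of 34 libraries (points) in 7 groups on the horizontal axis. Horizontal lines are group means and vertical lines ± 1 SD, and open points mark 16 L replicate 18 and 16-week CD replicates 1 and 2. The 3 low weight gainers sit between 7.06 and 7.13, above the 16-week HFD libraries.

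**Figure D2:**
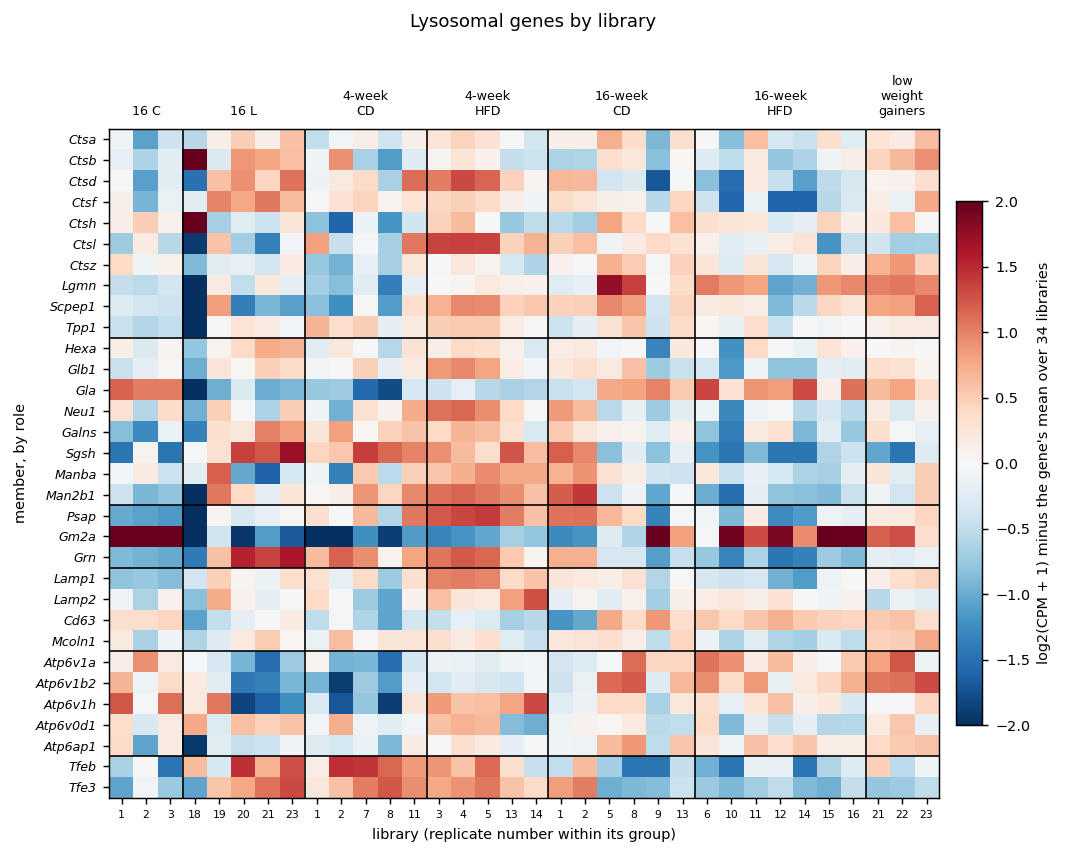
Each row is 1 of the 32 genes, grouped by role from proteases at the top to transcription factors at the bottom, and each column is 1 of the 34 libraries, numbered by replicate within its group. Colour is log2(CPM + 1) minus the gene's mean over all libraries, limited to -2 and 2, with red higher and blue lower. Gm2a is red in the 3 libraries of 16 C and blue in the 5 of 16 L.

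Leptin injection was compared with saline in CCs after 16 days. Gm2a and Gla, which encodes the lysosomal alpha-galactosidase that removes terminal galactose from globosides, were lower in 16 L than in 16 C. Mean levels of Gm2a were 31010 CPM in 16 C, 1809 in 16 L, 1441 in 4-week CD and 2300 in 4-week HFD. Those of Gla were 52.3, 11.9, 12.2 and 17.3 CPM in the same order. Thus 16 L lay near the 4-week groups, and the 16-week groups and low weight gainers lay between 16 L and 16 C. Levels across protocols depend on the scaling. The log2 fold change was -4.11 (SE 0.638, adjusted p = 0.0131) for Gm2a and -2.16 (SE 0.452, adjusted p = 0.0279) for Gla (edgeR's quasi-likelihood test, two-sided, Benjamini-Hochberg adjustment over all genes tested). With all 32 members tested, 2 were lower and 0 were higher, against 4.50% lower and 4.06% higher among 11723 genes. At an unadjusted p under 0.05, 5 members were higher (15.6%) and 3 lower (9.38%), against 19.9% and 12.5% of all genes. Neither of these shares at an unadjusted p stood above the background. The median log2 fold change of the members was 0.32 and that of all genes 0.27, a difference of 0.04. Markers of other cells differed as well. Of 12 macrophage markers tested 11 had positive values (91.7%), against 58.8% of all genes. Their median was 1.64, and Laptm5 rose (5.30, SE 1.425, adjusted p = 0.0493). Macrophage markers summed to 166.5, 882.5 and 151.1 CPM in 16 C and to 659.8, 136.3, 1677, 417.3 and 1837 CPM in 16 L, and their part in the result was not tested. By role, 7 of 10 proteases, 6 of 8 glycosidases and sulfatases and both transcription factors had positive values, against 58.8% of all genes. Of 5 proton pump subunits 4 had negative values. DESeq2 gave 2 members higher (Grn, Lamp1) and 3 lower (Gm2a, Gla, Atp6v1a), against 13.6% and 8.81% of all genes. limma-voom with quality weights gave 14 and 8, against 34% and 30.5% of all genes. Scaling by total counts moved the median of all genes to 1.07 and the split to 8 higher and 1 lower, against 30.4% and 3.4% of all genes. Leaving out 16 L replicate 18, the library with oviduct markers, raised the calls to 8 higher and 4 lower, against 20.2% and 21.7% of all genes. Leaving out 16 C replicate 1, 2 or 3 left 0, 1 and 0 calls, and leaving out 16 L replicate 20, 21 or 23 left 0, 1 and 0. In these 6 fits at most 0.248% of all genes were higher and at most 1.03% lower.

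After 4 weeks of HFD, Atp6v1h, a regulatory subunit of the proton pump, and Scpep1, a serine carboxypeptidase of lysosomes, rose in CCs. The log2 fold changes were 1.53 (SE 0.351, adjusted p = 0.0302) and 1.16 (SE 0.300, adjusted p = 0.0418) by edgeR's quasi-likelihood test. These 2 of 32 members were 6.25% of the list, against 1.19% higher among 11727 genes, and 0 members were lower, against 3.06% of all genes. At an unadjusted p under 0.05, 12 of 32 members were higher (37.5%) and 0 lower, whereas 10.9% of all genes were higher and 13.4% lower. In total 26 of 32 members (81.2%) had positive values, against 49.3% of all genes. The median log2 fold change was 0.45, and -0.01 for all genes. All 5 proton pump subunits, the 2 activators with progranulin, and 9 of 10 proteases were positive, whereas Tfeb and Tfe3 were negative. DESeq2 called 4 members and limma-voom 16, each of them higher, against 4.37% and 16.5% of all genes. The calls depended on single libraries. None remained without CD replicate 2, 7 or 8 or without any 1 of the 5 HFD libraries, 1 (Atp6v1h) remained without CD replicate 1, and 3 were called without CD replicate 11. Over all genes the number higher went from 140 to 0 to 30 in the fits with no member called, to 80 without CD replicate 1 and to 751 without CD replicate 11. The median difference from all genes stayed between 0.35 and 0.53 in those 10 fits. Sums of macrophage markers (13 of 14 in the table) were 95.9 to 563.4 CPM in CD and 89.4 to 474.9 CPM in HFD, and their part in the result was not tested.

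After 16 weeks of HFD no member passed an adjusted p of 0.05 by edgeR's quasi-likelihood test. Of the 30 members that passed the filter on low counts (Tfeb and Sgsh did not), 0 were higher and 0 lower, against 0.00921% and 0.0184% of 10861 genes. At an unadjusted p under 0.05, 1 member was higher (3.33%) and 9 lower (30%), compared with 8.00% and 17.3% of all genes. The one that was higher was Gm2a, and the lower ones were Grn, Man2b1, Ctsf, Mcoln1, Psap, Glb1, Manba, Tfe3 and Lamp1. All 10 proteases had negative values, whereas 46.6% of all genes had positive ones. The median of the 30 members was -0.24 against -0.05 for all genes. DESeq2 called 4 members lower (Grn, Man2b1, Ctsf, Mcoln1), against 7.04% of all genes, and limma-voom 0. Scaling by total counts gave 9 lower, against 14.4% of all genes. Without 16-week CD replicates 1 and 2, 2 members were lower at an unadjusted p under 0.05 (Ctsf, Mcoln1), against 4.20% of all genes. The median relative to all genes was -0.23 then and -0.20 with all libraries. Without CD replicate 9, on the other hand, 7 members were called, with Gm2a higher and Man2b1, Grn, Mcoln1, Ctsf, Psap and Glb1 lower. In that fit 7.58% of all genes were higher and 12.9% lower.

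The low weight gainers, which ate HFD for the same 16 weeks, were compared with 16-week HFD. In all, 8 members rose, namely Mcoln1, Grn, Ctsb, Scpep1, Ctsf, Man2b1, Glb1 and Lamp1. They include 3 proteases, 2 glycosidases, progranulin, an ion channel and a glycoprotein of the lysosomal membrane, and their log2 fold changes ran from 0.69 to 1.04. Among 30 members tested, 8 were 26.7%, against 10.8% higher among 11258 genes, and 0 were lower, against 9.93% of all genes. At an unadjusted p under 0.05, 12 were higher (40%) and 1 lower (Lamp2, 3.33%), against 17.8% and 18.5%. The median log2 fold change was 0.43, and -0.03 over all genes. DESeq2 gave 10 higher and 1 lower (Lamp2), against 12.5% and 12.8% of all genes, and limma-voom 11 and 1 (Lamp2), against 14.9% and 14.3%. With 3 low weight gainers the count depended on each of them: it was 3 without replicate 21, 6 without replicate 22 and 1 (Mcoln1) without replicate 23, and it was 5 without HFD replicate 14. The shares of all genes that were higher in these 4 fits were 5.77%, 7.6%, 2.95% and 8.54%. Mcoln1 kept its call in all 17 alternative fits. Beside this, 2 neutrophil markers were tested. S100a8 rose with a log2 fold change of 4.72 (SE 1.12, adjusted p = 0.0185), and the other had a negative value, -0.37. The 6 neutrophil markers, with Ly6g at 0, summed to 8.46 to 101 CPM in low weight gainers and 5.39 to 16.0 CPM in HFD. Macrophage markers summed to 345 to 635 CPM and 153 to 816 CPM. By gene, 9 of 12 macrophage markers tested had positive values (75%), against 48.3% of all genes. Their median log2 fold change was 0.44, and 0 were called. The part of these cells in the result was not tested.

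Against 16-week CD the low weight gainers showed no called member. The counts were 0 of 30 higher and 0 lower by edgeR's quasi-likelihood test, against 0.00861% and 0.00% of 11620 genes. At an unadjusted p under 0.05 they were 1 higher (Ctsb, 4.10% of all genes) and 1 lower (Ctsl, 7.08% of all genes), and DESeq2 called Ctsl lower (1.49% of all genes). The median of the members was 0.14, and -0.08 over all genes. All 12 macrophage markers tested had positive values, against 44.3% of all genes, with a median of 0.69 and 0 called. The part of macrophages was not tested.

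**Figure D3:**
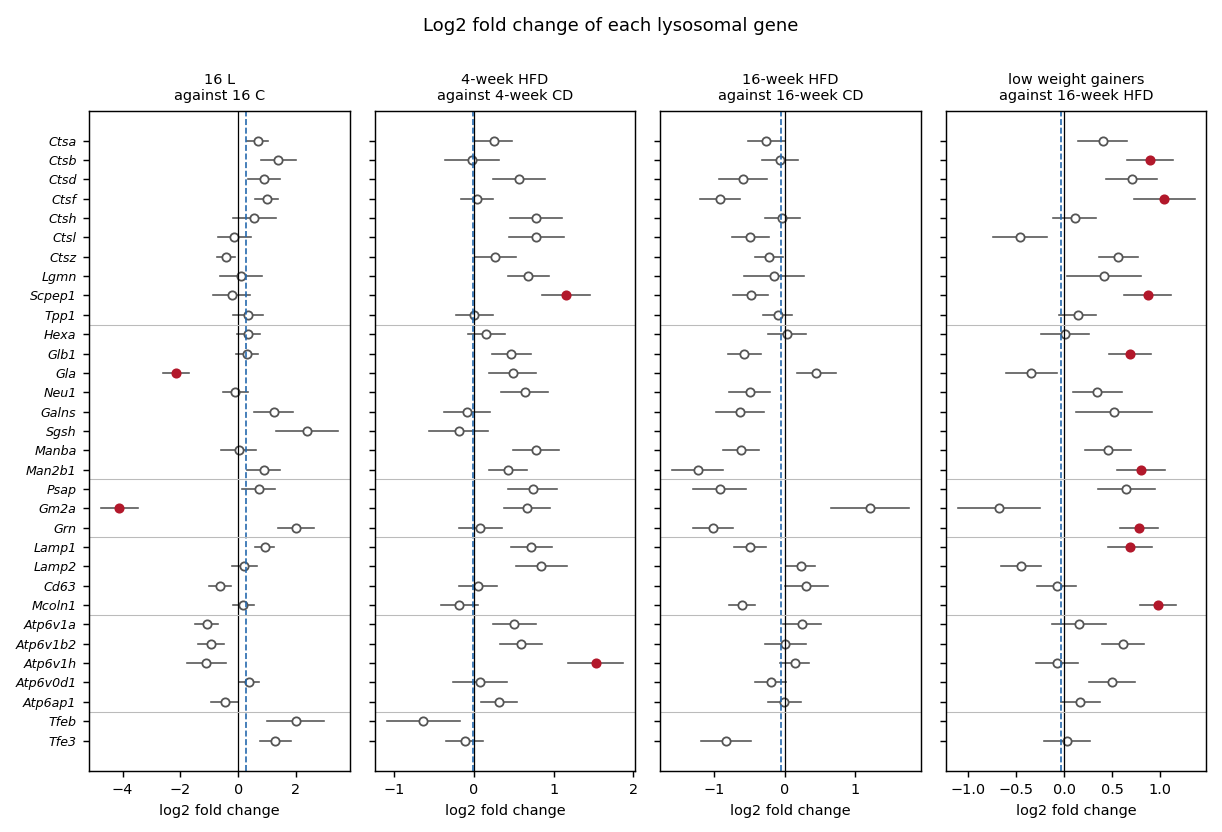
Log2 fold change (horizontal axis) with ± 1 SE bars for each of the 32 genes (rows, by role) in 4 comparisons, from edgeR. Filled red points have an adjusted p under 0.05, open points do not, the dashed line is the median of all genes tested, and genes outside the count test have no point. Most points lie right of the line in 4-week HFD and in low weight gainers, and left of it in 16-week HFD.

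Whether the response to diet changed with its duration was asked with the interaction of diet and time, given as the 16-week difference minus the 4-week difference. Scpep1 and Man2b1 differed, with -1.57 (SE 0.415, adjusted p = 0.0358) and -1.55 (SE 0.446, adjusted p = 0.0484) on the log2 scale by edgeR's quasi-likelihood test. These were 2 of 32 members lower and 0 higher, against 1.92% and 1.74% of 12235 genes. At an unadjusted p under 0.05, 13 members were lower (40.6%) and 0 higher, against 14% and 9.37% of all genes, and DESeq2 and limma-voom called 7 and 15 members, each of them lower, against 5.85% and 10.5% of all genes. Of the 32 values 28 were negative, with a median of -0.57 against -0.09 for all genes. Positive values were found for 12.5% of the members and 46.1% of all genes. Leaving out CD replicates 1 and 2 of 16 weeks together left 0 calls, with 12 members lower at an unadjusted p under 0.05 against 9.47% of all genes. The median then lay at -0.55 relative to all genes, and at -0.49 with all libraries. With the replicate block 0 members were called as well, and the median relative to all genes was -0.87. Scpep1 kept its call in 13 of the 23 fits that left out 1 library and Man2b1 in 7 of 23. No member was called when CD library 1 or 2 or HFD library 12 or 14 of 16 weeks was left out, nor when CD library 1, 2 or 8 or HFD library 3, 4 or 5 of 4 weeks was. Without HFD library 10, 15 or 16 of 16 weeks or HFD library 13 of 4 weeks the count was 1. It was 3 when CD library 5 or 13 of 16 weeks was left out, 7 for CD library 11 of 4 weeks and 8 for CD library 9 of 16 weeks. All genes lower were at most 0.827% in the fits with no member called, and 5.78% and 7.44% in the fits with 7 and 8. They were 3.8% without CD library 5 of 16 weeks and 2.77% without CD library 13.

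Seen gene by gene, 18 of the 30 members tested at both times (60%) were higher on HFD at 4 weeks and lower on HFD at 16 weeks, whereas 26.4% of 10693 genes showed this order. At both times 8 members were higher and 4 lower, and 0 were lower first and higher later. The 4-week and 16-week libraries share no animals. Without 16-week CD replicates 1 and 2 the share was 19 of 30 (63.3%), against 25.6% of all genes. The TMM factors of the 4-week libraries (1.11 to 1.39) were all above those of 16-week HFD (0.724 to 0.892). Within 16 weeks the factors ran from 0.762 to 1.37 on CD, so the 16-week differences depended on the scaling too.

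**Figure D4:**
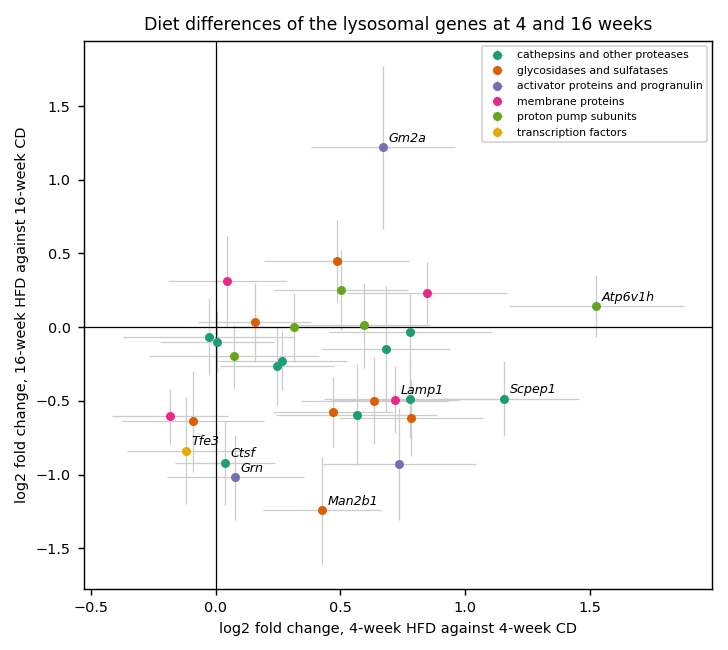
Log2 fold change of HFD against CD after 4 weeks (horizontal axis) and after 16 weeks (vertical axis) for the 30 genes tested in both, with ± 1 SE bars and colours for the role of each protein. The lower right field holds 18 genes, among them Scpep1, Man2b1, Lamp1 and Grn, and Gm2a stands alone at the top.

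Among the proteases, Scpep1 showed the clearest diet pattern. Its 4-week levels were 107.7, 81.6, 195.6, 88.7 and 243.9 CPM on CD and 313.9, 376.4, 371.4, 266 and 281.3 CPM on HFD. Every HFD library lay above every CD library. After 16 weeks the lowest, median and highest levels were 148, 269.1 and 375.2 CPM on CD and 104.7, 219.5 and 258.9 CPM on HFD, and the 3 low weight gainers had 335.3, 340.1 and 438.2 CPM. The low weight gainers were thus above the whole HFD range and reached into that of CD, with a log2 fold change of 0.87 against HFD (SE 0.246, adjusted p = 0.0202). In the leptin protocol 16 C had 158.9, 148.2 and 144.6 CPM and 16 L had 31.8, 347.4, 74.1, 102.6 and 90.8 CPM. In 16 L, 4 of the 5 libraries lay below the controls and 1 far above, and the difference did not pass the test. Scpep1 overlaps a gene on the other strand, 4930405P13Rik, that had 2830 reads beside 38753.

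Cathepsin B (Ctsb), the cysteine protease whose release has been tied to NLRP3 activation, had its highest group mean in 16 L, at 1573 CPM. Its levels were 678.2, 495.2 and 651.1 CPM in 16 C and 3377, 622.8, 1393, 1317 and 1156 CPM in 16 L. Of the 5 leptin libraries 4 lay above 678.2 CPM, and the highest was replicate 18. The log2 fold change was 1.38 (SE 0.601, adjusted p = 0.145), and 0.81 without replicate 18 (adjusted p = 0.0762). The next group mean was that of the low weight gainers, at 1222 CPM. The leptin libraries other than replicate 18, at 622.8 to 1393 CPM, overlapped the low weight gainers, at 1038 to 1440 CPM. The rank of 16 L thus depended on replicate 18, and levels across protocols depend on the scaling. On diet, Ctsb had 724.8, 1440, 484.6, 350 and 634.7 CPM in 4-week CD and 791.1, 923.8, 804.7, 545.3 and 565.2 CPM in 4-week HFD. The HFD libraries lay within the range of CD, with a log2 fold change of -0.03 (SE 0.344, adjusted p = 0.969). After 16 weeks it ran from 425.5 through a median of 642.1 to 971.3 CPM on CD and from 442.7 through 638.1 to 860.1 CPM on HFD, with a log2 fold change of -0.06 (SE 0.262, adjusted p = 0.898). The low weight gainers, at 1038, 1188 and 1440 CPM, were above every library of both 16-week groups. Against HFD the log2 fold change was 0.89 (SE 0.240, adjusted p = 0.0160), and against CD 0.84 (SE 0.361, adjusted p = 0.420). The interaction of diet and time was 0.00 (SE 0.453, adjusted p = 0.998). Fdft1, on the other strand, overlaps Ctsb and had 6959 reads beside 130084.

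Cathepsin L (Ctsl), a cysteine protease with broad activity in lysosomes, had negative values in low weight gainers. It had 1585, 649.3, 884.4, 563.8 and 1870 CPM in 4-week CD and 2281, 2317, 2288, 1231 and 1457 CPM in 4-week HFD. In HFD, 3 libraries lay above all of CD and the other two within its range, with a log2 fold change of 0.78 (SE 0.346, adjusted p = 0.180). After 16 weeks the lowest, median and highest levels were 855.6, 1143 and 1364 CPM on CD and 393.9, 812.1 and 1084 CPM on HFD (log2 fold change -0.49, SE 0.264, adjusted p = 0.245). The low weight gainers had 684.1, 560.1 and 565.7 CPM, below every 16-week CD library and within the range of HFD. The log2 fold change was -0.92 against CD (SE 0.328, adjusted p = 0.356) and -0.46 against HFD (SE 0.284, adjusted p = 0.254), and neither passed the test. The interaction was -1.20 (SE 0.444, adjusted p = 0.102). In the leptin protocol 16 C had 546.5, 1004 and 609.1 CPM and 16 L had 236.2, 1329, 560.3, 351.9 and 860.6 CPM, with a log2 fold change of -0.13 (SE 0.580, adjusted p = 0.9).

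Ctsf, a cysteine cathepsin linked to neuronal storage disease, rose in low weight gainers. It had 39.5, 32.3 and 60.6 CPM there, against a lowest, median and highest of 11.0, 23.9 and 32.4 CPM in 16-week HFD and 23.7, 40.6 and 48.2 CPM in 16-week CD. Of the 3 libraries 2 lay above all of HFD and the other at its upper end. The log2 fold change was 1.04 against HFD (SE 0.315, adjusted p = 0.0275) and that of HFD against CD -0.92 (SE 0.285, adjusted p = 0.0771). In the leptin protocol Ctsf had 38.6, 18.1 and 32.4 CPM in 16 C and 30.1, 71.9, 61, 74.4 and 55.3 CPM in 16 L, with a log2 fold change of 0.99 (SE 0.402, adjusted p = 0.127), and 1.09 without replicate 18 (adjusted p = 0.0150). Lgmn had 595.9, 526.6, 828.1, 369.2 and 832.6 CPM in 4-week CD and 965, 987.8, 1089, 1026 and 1013 CPM in 4-week HFD. These did not overlap, but the adjusted p was 0.122 (log2 fold change 0.68, SE 0.256). Ctsz, an exopeptidase, was 264.1, 297.6 and 224.5 CPM in low weight gainers, above the 16-week HFD range of 129.5 to 223.7 CPM (log2 fold change 0.56, SE 0.202, adjusted p = 0.0548). The other proteases, Ctsa, Ctsd, Ctsh and Tpp1, were not called by edgeR's quasi-likelihood test with all libraries, whereas limma-voom called Ctsa, Ctsd and Tpp1 higher with leptin, and Ctsd and Ctsh higher at 4 weeks and lower in the interaction.

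Of the glycosidases, Gla had the largest change with leptin. Its levels were 56.0, 50.3 and 50.5 CPM in 16 C and 3.76, 11.8, 19.6, 11.7 and 12.5 CPM in 16 L. All 5 leptin libraries lay below all 3 controls, and without replicate 18 the log2 fold change was -1.997 (SE 0.29, adjusted p = 0.000684). The call held with DESeq2, and was lost with scaling by total counts and in 6 of the 8 fits that left out 1 library, whose log2 fold changes ran from -2.40 to -1.997. The 4-week levels were low in both groups, with 14, 14.3, 7.55, 6.28 and 18.8 CPM on CD and 18, 21.4, 16.1, 15.1 and 15.8 CPM on HFD. In 16-week CD, replicates 1 and 2 had 17.4 and 18.4 CPM and the other 4 libraries 35.0 to 49.1 CPM, and 16-week HFD ran from 26.6 through a median of 45.6 to 62.6 CPM. No diet comparison of Gla passed edgeR's test, and limma-voom called it higher at 4 weeks.

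Man2b1, the alpha-mannosidase that trims N-glycans from degraded glycoproteins, was 1 of the 2 members whose diet difference changed with time. It had 75.7, 81.6, 139.3, 100.8 and 147.4 CPM in 4-week CD and 161.4, 168.6, 155.8, 142.8 and 112.7 CPM in 4-week HFD. In 16-week CD, replicates 1 and 2 had 174.9 and 201.7 CPM and the other 4 had 35.8 to 72.5 CPM, while 16-week HFD had 25.6 at the lowest, 41.3 at the median and 66.2 at the highest. The difference of HFD from CD at 16 weeks, at -1.24 (SE 0.363, adjusted p = 0.0700), thus rested on 2 CD libraries, and without these the interaction was -0.82 (adjusted p = 0.201). In low weight gainers Man2b1, at 71.2, 57.1 and 105.6 CPM, had a log2 fold change of 0.80 against HFD (SE 0.250, adjusted p = 0.0314). Of the 3, 2 lay above the HFD range.

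Glb1, the acid beta-galactosidase, had 92.1, 88.5 and 74.9 CPM in low weight gainers and a lowest, median and highest of 31.6, 55.7 and 67.7 CPM in 16-week HFD. The groups did not overlap, with a log2 fold change of 0.69 (SE 0.218, adjusted p = 0.0336). At 4 weeks Glb1 was 68.6, 72.1, 100.4, 63.2 and 82.1 CPM on CD and 129.9, 140.2, 125.1, 79.8 and 68.6 CPM on HFD, so that 3 HFD libraries were above CD and the other two were within its range. Manba, the beta-mannosidase, had 25.8, 10.1, 40.2, 18.8 and 38.7 CPM in 4-week CD and 41.0, 46.1, 53.7, 47.2 and 46.9 CPM in 4-week HFD. Its groups did not overlap, but the adjusted p was 0.118 (log2 fold change 0.78, SE 0.289). For Hexa, Neu1 and Galns no comparison passed edgeR's test, whereas limma-voom called Hexa and Galns higher with leptin and Neu1 higher at 4 weeks and lower in the interaction. Galns had 1303 reads in all and shares its place with Gm20388 on the other strand, which had 4792, so its values are uncertain where counting did not use strand.

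Sgsh, the heparan N-sulfatase, had too few reads for the count test after 16 weeks. It had 9 reads over 7 libraries of 16-week HFD, 3 of them at 0, and 65 reads over 6 libraries of 16-week CD. The difference of mean log2(RPM + 1), with RPM relative to the library total, was -1.21 (exact permutation test, two-sided, p = 0.00758, the smallest possible being 0.000583). Of the 65 reads, 22 and 32 came from CD replicates 1 and 2, and without these the difference was -0.53 (exact permutation test, p = 0.0636).

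Among the activators and progranulin, Gm2a stood at 28990, 32900 and 31130 CPM in 16 C and at 933, 3433, 1169, 2095 and 1413 CPM in 16 L, so that every leptin library was under the lowest control. Without replicate 18 the log2 fold change was -4.04 (SE 0.43, adjusted p = 0.000152), and the adjusted p was 0.05 or more without 16 C replicate 1 or 3 and without 16 L replicate 20 or 23, with log2 fold changes between -4.47 and -3.98 in the 8 fits that left out 1 library. In the diet protocol no comparison of Gm2a passed the test. It had 1038, 948.3, 1934, 1230 and 2058 CPM in 4-week CD and 1819, 2000, 2191, 2860 and 2633 CPM in 4-week HFD (log2 fold change 0.67, SE 0.288, adjusted p = 0.168). After 16 weeks the lowest, median and highest were 1880, 3385 and 17890 CPM on CD and 4453, 16620 and 22440 CPM on HFD, with a log2 fold change of 1.22 (SE 0.555, adjusted p = 0.182). One CD library, replicate 9, lay among the HFD libraries, and HFD replicate 6 lay among those of CD. In low weight gainers Gm2a had 10370, 11120 and 5800 CPM, within the range of both groups. Levels of Gm2a thus spanned from 933 to 32900 CPM over the 34 libraries.

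**Figure D5:**
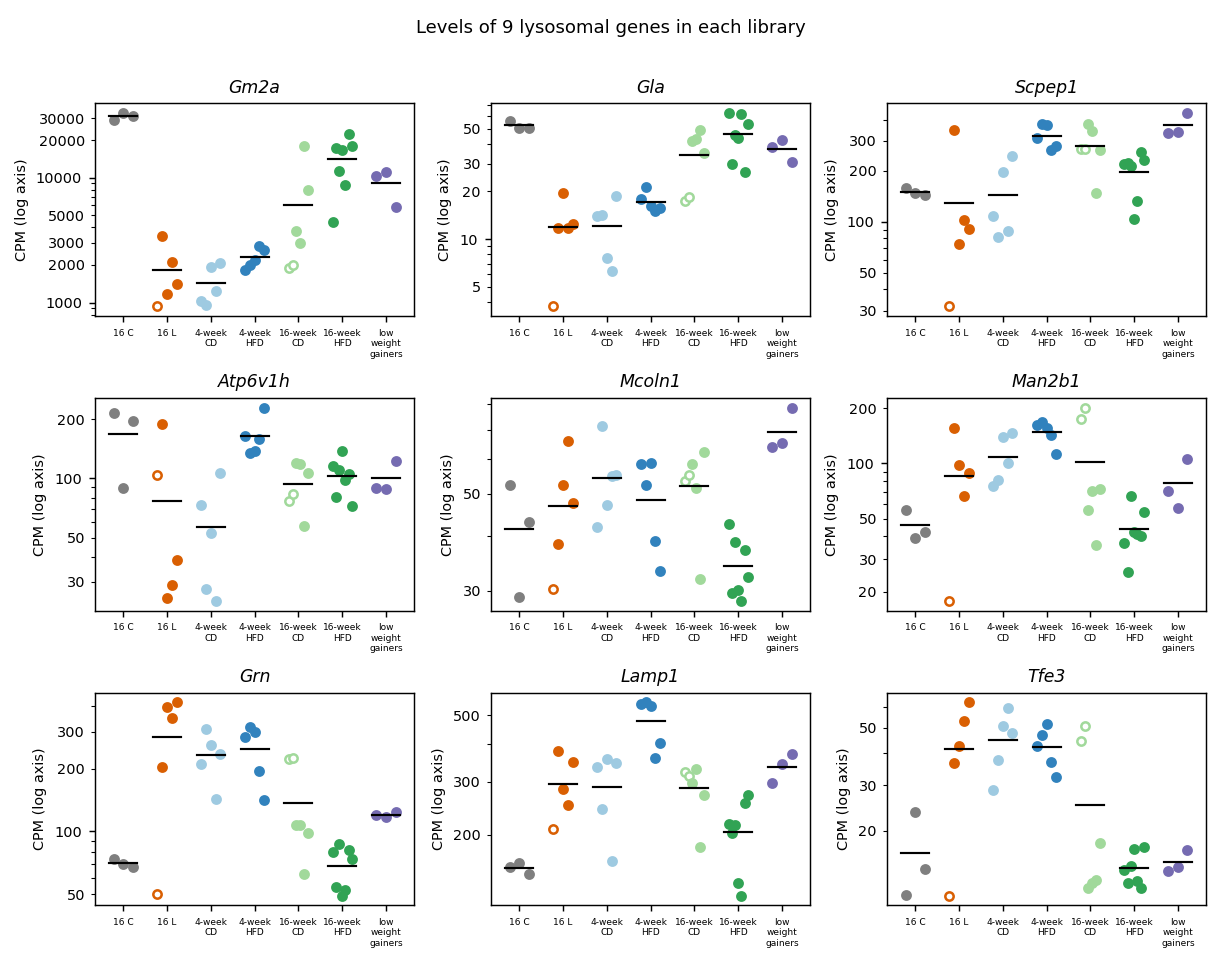
Levels in CPM on log axes of 9 of the 32 genes in each library (points), by group on the horizontal axis, with group means as horizontal lines. Open points mark 16 L replicate 18 and 16-week CD replicates 1 and 2. Gm2a and Gla in the 5 libraries of 16 L lie below those of 16 C, and Mcoln1 in the 3 low weight gainers lies above the 7 libraries of 16-week HFD.

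Psap had 791.7, 762.6 and 720.5 CPM in 16 C and 250.5, 1651, 1276, 1429 and 1618 CPM in 16 L. Replicate 18 was below the controls and the other 4 leptin libraries above them, and without it the log2 fold change was 0.89 (SE 0.25, adjusted p = 0.0189), against 0.70 with it. After 4 weeks Psap was 2045, 1608, 2509, 1067 and 3304 CPM on CD and 3733, 4047, 4220, 3237 and 2399 CPM on HFD (log2 fold change 0.74, SE 0.307, adjusted p = 0.158). In HFD, 3 libraries exceeded the CD range. The interaction was -1.56 (SE 0.510, adjusted p = 0.0715).

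Grn encodes progranulin, a secreted growth factor that is carried to lysosomes and cut into granulins there. It had 73.4, 70.0 and 67.1 CPM in 16 C and 50.2, 203.6, 394.7, 348.4 and 416.6 CPM in 16 L. As with Psap, replicate 18 was the lowest of all and the other 4 leptin libraries were above the controls. Macrophage marker sums of 16 L replicates 18, 19, 20, 21 and 23 were 659.8, 136.3, 1677, 417.3 and 1837 CPM. Replicates 20 and 23, with the highest Grn, had the highest sums, and replicate 18, with the lowest Grn, exceeded replicates 19 and 21. In 16 C replicate 2 the sum was 882.5 CPM and Grn was 70.0 CPM. The part of macrophages was not tested. The log2 fold change of Grn was 2.00 (SE 0.623, adjusted p = 0.0696), and 2.20 without replicate 18 (SE 0.31, adjusted p = 0.00065). In low weight gainers Grn was 119.6, 116.6 and 123.9 CPM, against a lowest, median and highest of 49.2, 73.4 and 86.8 CPM in 16-week HFD, with a log2 fold change of 0.78 (SE 0.199, adjusted p = 0.0127). The 3 libraries were above all 7 of HFD. In 16-week CD, replicates 1 and 2 had 221.6 and 223.7 CPM and the other 4 libraries 62.6 to 107.5 CPM.

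Mcoln1, which encodes the calcium channel TRPML1 of the lysosomal membrane, was the member with the smallest adjusted p in the low weight gainers. It had 63.8, 65.3 and 78.6 CPM there, and a lowest, median and highest of 28.4, 32.3 and 42.6 CPM in 16-week HFD. The ranges were far apart, with a log2 fold change of 0.98 (SE 0.189, adjusted p = 0.00296). In 16-week CD it was 31.97, 54.3 and 62.3 CPM, so that the low weight gainers were also above the 6 CD libraries, but with a log2 fold change of 0.40 the difference did not pass the test (adjusted p = 0.582). The difference of HFD from CD was -0.61 (SE 0.189, adjusted p = 0.0780), and -0.52 without CD replicates 1 and 2 (adjusted p = 0.456).

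Lamp1, a main glycoprotein of the lysosomal membrane, had 155.9, 161.6 and 148.8 CPM in 16 C and 209.9, 378.9, 283.6, 251.3 and 349.5 CPM in 16 L. All 5 leptin libraries, replicate 18 included, were above the controls, with a log2 fold change of 0.91 (SE 0.333, adjusted p = 0.0997), and 0.93 without replicate 18 (adjusted p = 0.0129). After 4 weeks it was 335.7, 243, 357.6, 164.4 and 345.7 CPM on CD and 544.3, 552.6, 538.3, 360 and 404.9 CPM on HFD, again without overlap (log2 fold change 0.72, SE 0.257, adjusted p = 0.109). After 16 weeks the order was turned. The lowest, median and highest were 181.9, 306.3 and 331.7 CPM on CD and 125.7, 215.3 and 272.4 CPM on HFD (log2 fold change -0.49, SE 0.227, adjusted p = 0.187), and the interaction was -1.14 (SE 0.356, adjusted p = 0.0610). The low weight gainers had 297.9, 343.8 and 370.5 CPM, above all of HFD, with a log2 fold change of 0.69 (SE 0.229, adjusted p = 0.0414), and 0.22 against CD (SE 0.282, adjusted p = 0.811).

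Lamp2, needed for chaperone-mediated autophagy in 1 of its isoforms, did not follow Lamp1. In low weight gainers it was 374.2, 499.3 and 473.3 CPM, below the 16-week HFD range of 519.2 to 672.1 CPM, with a log2 fold change of -0.45 (SE 0.211, adjusted p = 0.132). After 4 weeks it had 727.8, 543.2, 330.4, 262.9 and 582.6 CPM on CD and 833.7, 653.1, 628.8, 966.8 and 1329 CPM on HFD, with a log2 fold change of 0.85 (SE 0.3202, adjusted p = 0.124). Cd63, a tetraspanin of late endosomes and exosomes, was not called by edgeR's test, and limma-voom called it lower with leptin.

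Of the 5 proton pump subunits, Atp6v1h alone passed edgeR's test in any of the 6 comparisons, after 4 weeks of HFD. In 4-week CD Atp6v1h had 73.5, 27.4, 52.7, 23.9 and 107.2 CPM and in 4-week HFD 164.6, 135.2, 137.7, 158.1 and 228.6 CPM. The 5 HFD libraries lay above the 5 of CD. Atp6v1h kept its call with DESeq2, limma-voom and scaling by total counts, and in 2 of the 10 fits that left out 1 library. It lost the call in 9 of 17 alternative fits, among them the fit of all 34 libraries. In 16 C it was 215.7, 89.6 and 196.2 CPM and in 16 L 104.3, 189.5, 24.8, 28.9 and 38.5 CPM, which overlapped. Atp6v1a, the catalytic subunit, had 234.6, 407 and 242.1 CPM in 16 C and 207.8, 170.1, 112, 74.4 and 129.9 CPM in 16 L. These 5 were below the 3 controls, with a log2 fold change of -1.09 (SE 0.406, adjusted p = 0.105), and -1.39 without replicate 18 (SE 0.34, adjusted p = 0.00931). Atp6v1b2 had 233.1, 134.6 and 188.5 CPM in 16 C and 166.3, 125.3, 52.7, 55.8 and 76.2 CPM in 16 L, and without replicate 18 its log2 fold change was -1.33 (SE 0.33, adjusted p = 0.0100). In low weight gainers Atp6v1b2 was 301.7, 312.4 and 358 CPM, above the 16-week HFD range of 130 to 276.5 CPM (log2 fold change 0.61, SE 0.2199, adjusted p = 0.0557). Atp6v0d1, of the membrane sector, and Atp6ap1, an accessory subunit, were not called by edgeR's test with all libraries. By limma-voom Atp6ap1 was lower with leptin and Atp6v0d1 higher at 4 weeks and in low weight gainers, and with total counts Atp6v0d1 was higher with leptin.

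Tfeb was near the detection limit. A count of 0 allows up to 3 reads, which is 0.227 to 2.72 RPM in these libraries and covers counting error only. In 16 C the 3 libraries had 1, 15 and 0 reads (0.757, 1.77 and 0 CPM), and in 16 L they had 19, 12, 15, 5 and 17 reads (3.24, 1.198, 6.54, 3.44 and 5.74 CPM). The log2 fold change was 1.98 (SE 0.9847, adjusted p = 0.191). In 4-week CD Tfeb had 2.03, 6.55, 6.36, 5.10 and 3.94 CPM and in 4-week HFD 4.07, 3.06, 5.01, 2.41 and 1.00 CPM, which overlapped (log2 fold change -0.64, SE 0.461, adjusted p = 0.404). After 16 weeks the 6 CD libraries held 34 reads, 24 of them in replicate 2, the 7 HFD libraries 16 reads and the 3 low weight gainers 26 reads. Of the 3 exact permutation tests on log2(RPM + 1), none passed, with a difference of -0.24 between HFD and CD (p = 0.576), 0.67 between low weight gainers and HFD (p = 0.0917) and 0.44 between low weight gainers and CD (p = 0.5). The interaction of diet and time was 0.24 (SE 1.01, adjusted p = 0.909).

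Tfe3, the relative of TFEB that shares its binding sites, was not called by edgeR's quasi-likelihood test with all libraries. It was called higher with leptin by limma-voom (adjusted p = 9.17e-05), with total counts (adjusted p = 0.028) and in the fit of all 34 libraries (adjusted p = 0.0273). It had 11.4, 23.7 and 14.3 CPM in 16 C and 11.3, 36.4, 42.7, 53.0 and 62.8 CPM in 16 L. Replicate 18 was at the level of the controls and the other 4 leptin libraries above them, with a log2 fold change of 1.28 (SE 0.545, adjusted p = 0.138), and 1.41 without replicate 18 (SE 0.36, adjusted p = 0.0111). At 4 weeks it was 28.8, 37.5, 50.9, 59.6 and 47.8 CPM on CD and 42.5, 46.7, 51.8, 36.9 and 32.3 CPM on HFD (log2 fold change -0.12, SE 0.236, adjusted p = 0.781). In 16-week CD, replicates 1 and 2 had 44.6 and 50.7 CPM, in the range of the 4-week libraries, whereas the other 4 had 12 to 18 CPM. The 7 libraries of 16-week HFD had 12.1 at the lowest, 14.2 at the median and 17.3 at the highest, and the low weight gainers had 14, 14.5 and 16.9 CPM. The log2 fold change of HFD against CD was -0.84 (SE 0.362, adjusted p = 0.162) and turned to 0.11 without CD replicates 1 and 2 (adjusted p = 0.882). For low weight gainers it was 0.03 against HFD (SE 0.240, adjusted p = 0.936) and -0.76 against CD (SE 0.531, adjusted p = 0.618), and the interaction was -0.61 (SE 0.433, adjusted p = 0.403).

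Other genes of the pathway, from lists written for this purpose, were counted in the same fits. Of 32 other lysosomal hydrolases tested at 4 weeks 4 were higher on HFD and 0 lower (all genes 1.19% and 3.06%), among them Asah1, the acid ceramidase (log2 fold change 1.83, SE 0.363, adjusted p = 0.0206). Scarb2, the receptor that carries glucocerebrosidase to lysosomes, was the 1 of 19 other membrane proteins that rose (1.12, SE 0.275, adjusted p = 0.0356). Of 9 genes for sorting of enzymes to lysosomes, 1 rose, the mannose 6-phosphate receptor gene M6pr (1.01, SE 0.268, adjusted p = 0.0445). Of 15 other proton pump subunits, 13 nutrient sensing genes and 22 autophagy genes tested, 0 passed in either direction. At an unadjusted p under 0.05, 4, 0 and 5 were higher (26.7%, 0% and 22.7%), against 10.9% of all genes. In the same order 1, 2 and 1 were lower (6.67%, 15.4% and 4.55%), against 13.4% of all genes. Values were positive for 71.9% of other hydrolases, 57.9% of membrane proteins and 22.2% of sorting genes, against 49.3% of all genes. For the pump, nutrient sensing and autophagy lists the shares were 80%, 46.2% and 63.6%. In 16-week HFD 0 genes of these 6 lists passed, against 0.00921% of all genes higher and 0.0184% lower.

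In low weight gainers against 16-week HFD, the other hydrolases had 4 higher (12.9%) and 0 lower of 31. Of all genes 10.8% were higher, a similar share, and 9.93% lower. Naglu had the smallest adjusted p of this list in edgeR's test (1.56, SE 0.266, adjusted p = 0.00163). Values were positive for 58.1% of these hydrolases, against 80% of the members and 48.3% of all genes. For membrane proteins, pump subunits, autophagy, sorting and nutrient sensing the positive shares were 55.6%, 42.9%, 81.8%, 77.8% and 38.5%. The other membrane proteins had 3 higher and 1 lower of 18, led by Sidt2 (1.55, SE 0.234, adjusted p = 0.00103). Other proton pump subunits had 3 higher, among them Tcirg1 (1.11, SE 0.302, adjusted p = 0.0169), and 1 lower of 14, Atp6v1e1 (-1.13, SE 0.258, adjusted p = 0.00698). Autophagy genes had 5 higher and 0 lower of 22, led by Atg9a (1.60, SE 0.302, adjusted p = 0.00266), and sorting genes 2 higher and 0 lower of 9. Nutrient sensing genes had 2 higher and 2 lower of 13. Of these Flcn (1.17, SE 0.224, adjusted p = 0.00287) and Rragc (1.09, SE 0.253, adjusted p = 0.00764), the genes of folliculin and of a Rag GTPase, were higher, and Fnip1, the partner of folliculin, was lower (-0.99, SE 0.238, adjusted p = 0.00913).

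With leptin, where 4.06% of all genes were higher and 4.50% lower, the other hydrolases had 2 higher and 1 lower (Aga) of 32, and the other membrane proteins 1 higher (Cln3) and 2 lower of 19. The mannose 6-phosphate receptor gene Igf2r fell with a log2 fold change of -2.48 (SE 0.556, adjusted p = 0.0318). Nutrient sensing genes had 1 higher and 2 lower of 13, and the lower ones, Rragd (-1.71, SE 0.326, adjusted p = 0.0229) and Mitf (-1.83, SE 0.403, adjusted p = 0.0312), are a target and a relative of TFEB. Autophagy genes had 2 higher (Ulk1, Plekhm1) of 22, sorting genes 2 higher and 1 lower of 9, and other proton pump subunits 0 of 16. At an unadjusted p under 0.05, 4 of these pump subunits were higher (25%) and 3 lower (18.8%), against 19.9% and 12.5% of all genes. In the interaction 4 of 32 other hydrolases were lower and 0 higher (all genes 1.92% and 1.74%), with Naglu at -2.14 (SE 0.539, adjusted p = 0.0297), as was Scarb2 among the membrane proteins (-1.48, SE 0.386, adjusted p = 0.0339), and Fnip1 was the 1 gene of the nutrient sensing list that was higher (1.59, SE 0.368, adjusted p = 0.0249).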

How the data were processed

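Smart-seq2 libraries of 34 mice were analysed from a table of raw read counts per gene, deposited by the authors. Per the submitters' processing notes, reads were trimmed with Trim Galore 0.4.2 and mapped with HISAT2 2.0.5 to GRCm38. The counting program and its use of strand are not given in the sources used here, and 9 of 32 members overlap another gene. The libraries carry no molecular identifiers, so reads are not independent molecules. No 2 of 72 replicate pairs were identical.

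Counts were tested with edgeR 4.0.16 (R 4.3.3): low counts filtered per comparison, TMM normalization, quasi-likelihood test, two-sided, Benjamini-Hochberg adjustment over all genes tested, call at 0.05. Only the groups compared entered each fit. This test returns no SE. The SE given with its log2 fold changes is their absolute value divided by the square root of the F statistic. Members failing the filter were tested by exact permutation on log2(RPM + 1). Levels per kb used union exon lengths. DESeq2 1.42.0, limma 3.58.1 (voom), other scalings and filters, and leaving out each library were alternatives, and omission of 16-week CD replicates 1 and 2 was added after seeing the data. The scripts were tested on simulated data. The 32 members and all lists were chosen with earlier results of these data known. By rule, every called member was named, values in every comparison were given for Ctsb, Ctsl, Lamp1, Tfeb and Tfe3, per-library values for these and for up to 6 members with the smallest adjusted p in a comparison, and up to 3 genes of each pathway list were named. Further values were chosen after they were seen. Some genes of these lists are not reported here. Replicate numbers shared between diet times do not pair animals by the labels.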

Additional observations from a re-analysis of the deposited data

Results flagged for a closer look

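In 110 sets of values, each of 1 quantity in 1 group of 5 to 7 libraries, the highest or lowest value was compared with the rest. Of these sets 8 had a value that stood apart by Dixon's criterion, which chance meets in about 1 in 20 sets. The groups of 3 libraries were not compared in this way. In 16 L replicate 18 the mean log2(CPM + 1) of the 32 members was 5.939 (next 6.757), Ctsb was 3377 CPM (next 1393) and Psap 250.5 CPM (next 1276). In 16 L replicate 19 Manba was 64.2 CPM (next 23.7) and Scpep1 347.4 CPM (next 102.6). In 16-week CD replicate 9 the mean of the members was 6.405 (next 6.948) and Mcoln1 31.97 CPM (next 51.51). In 16-week CD replicate 2 Tfeb was 3.264 CPM (next 0.9732). The diet difference changed between 4 and 16 weeks for Man2b1 by -1.548 (adjusted p = 0.0484) and for Scpep1 by -1.567 (adjusted p = 0.0358) on the log2 scale, by the interaction in edgeR's quasi-likelihood test.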

How the results depend on the processing

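Of the alternatives for single named members, 609 kept direction and side of the threshold, 88 lost the call, 30 gained it and 41 changed sign; causes were not tested. The number of members called with leptin (2) became 8 at an unadjusted p under 0.05, 5 with DESeq2, 22 with limma-voom and 9 with total counts. With all 34 libraries in 1 fit it was 10, against 20.5% of all genes higher and 12.6% lower, and leaving out 1 library 0 to 12. The leptin median relative to all genes (0.04402) became 0.1615 with limma-voom, -0.4202 with no filter and 0.1915 with at least 10 counts in every library. Leaving out 1 library it ran from -0.1121 to 0.2093. In the same order of settings the 4-week count (2) became 12, 4, 16, 1 and 0, and 0 to 3. The 16-week count (0) became 10 unadjusted, 4 with DESeq2 and 9 with total counts. With all libraries it was 4, against 8.58% of all genes lower, and leaving out 1 library 0 to 7. Low weight gainers against HFD (8) gave 13 unadjusted, 2 with all libraries (all genes 2.8% higher), and 1 to 11. Against CD (0) they gave 2 unadjusted and 1 with DESeq2. The interaction (2) gave 13 unadjusted, 7 with DESeq2 and 15 with limma-voom. It gave 4 with RLE, 7 with total counts and 5 with at least 10 counts, each of them lower. Of all genes 2.89%, 5.61% and 2.92% were lower in these fits, in that order. The interaction gave 0 with all libraries, 0 without 16-week CD replicates 1 and 2, and 0 to 8 leaving out 1 library. With the replicate block it gave 0, and the median relative to all genes (-0.4863) became -0.8744, and -0.7711 with limma-voom. Same-numbered libraries correlated at -0.29 to 0.16, so the numbers were not taken to pair animals. With total counts the mean of the members was 6.195 in 16 C, 6.955 in 16 L, 7.047 in 4-week CD and 7.363 in 4-week HFD. It was 6.952 in 16-week CD, 6.402 in 16-week HFD and 6.944 in low weight gainers.

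Signs changed as follows. With leptin Ctsl became 0.7613 with total counts and 0.02443 with at least 10 counts, and -0.5289 to 0.2143 leaving out 1 library. At 4 weeks Ctsb became 0.598 with limma-voom, 0.01037 with no filter and 0.03972 with at least 10 counts, and -0.1979 to 0.4003, and Tfe3 -0.2511 to 0.021. At 16 weeks Ctsb ran from -0.1706 to 0.05658. Without 16-week CD replicates 1 and 2, Tfe3 became 0.1113 at 16 weeks, 0.1399 in low weight gainers against CD and 0.1858 in the interaction, and Tfeb 0.22452 at 16 weeks. Tfe3 in low weight gainers against HFD became -0.03432 with limma-voom, and -0.04975 to 0.09546. Lamp1 against CD became -0.02194 with total counts. In the interaction Ctsb became -0.02485 with DESeq2, -0.8234 with limma-voom, -0.02479 with RLE, -0.2763 with total counts, -0.08744 with no filter, -0.05928 with at least 10 counts, -0.07142 with all libraries, -0.2125 without 16-week CD replicates 1 and 2, and -0.4221 to 0.1776. Tfeb became -0.1926 with total counts, -0.3439 with the replicate block, and -0.008024 to 1.189. Depth limits Tfeb and Sgsh most, with few reads per library.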
